A study of Mus musculus with 18 samples.

Results

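The response of Hmga2 KO clone #1 (KO#1) to 24 h of EpiLC induction was compared with the response of wt cells, as the difference between 2 changes: 24 h against 0 h in KO#1, minus 24 h against 0 h in wt cells. This response difference, an interaction term, rests on 12 of the 18 RNA-seq libraries of the study, 3 for each line and time. The other 6 libraries are labelled KO#2 and entered through the filter, the scaling and the shared estimate of the spread, and to choose genes for the size of the response. Hmga2 is an AT-hook protein of chromatin, and the study asked how its absence alters the exit of mouse pluripotent stem cells (PSCs) from the naive state.

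At 0 h both lines were undifferentiated induced PSCs, kept on inactivated fibroblasts with leukemia inhibitory factor (LIF) and the kinase inhibitors of the 2i medium. At 24 h both had been moved to Geltrex without feeders, in a medium holding Activin A and bFGF that drives them towards epiblast-like cells (EpiLCs). The wt cells came from 1 clone and KO#1 is 1 clone, so clone and genotype cannot be told apart. The 3 libraries of a group are independent biological replicates of that clone. In bulk RNA, fewer cells of a kind and less RNA per cell cannot be told apart either.

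In the naive state, PSCs depend on LIF and on inhibition of the FGF-ERK pathway, and they express factors such as Nanog, Klf4, Tbx3 and Prdm14. When the inhibitors are withdrawn and FGF and Activin A are added, these factors are shut down and genes of the formative epiblast such as Fgf5, Otx2, Pou3f1 and Dnmt3a are switched on. Sprouty proteins (Spry) and the phosphatases of the Dusp family are feedback inhibitors that ERK signalling itself induces.

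Total counts were 3466436 (wt 0 h replicate 1) to 14613617 in the 6 libraries of 0 h and 18640956 to 23872837 in those of 24 h, with no overlap. A list of noncoding RNAs such as Rn7sk, Rmrp and Malat1 took 4.39% to 7.74% of counts at 0 h and 9.89% to 16.8% at 24 h, and the part of these splits in the changes over time was not tested. The detection limit of 3 counts stood for 0.175 to 0.984 CPM (counts scaled to a common library size with TMM factors). The 5 most abundant genes took 42.1% of counts in wt 0 h replicate 1, 46.9% in wt 24 h replicate 2 and 46.3% in KO#1 24 h replicate 2, whose TMM factors were 0.88, 0.51 and 0.53. Protein-coding genes took 41.3% to 77.4% of counts in the wt and KO#1 libraries. In the libraries labelled KO#2 they took 76.3% to 84.7%, with TMM factors of 1.31 to 1.45. Over 14 fibroblast markers, the summed level was 161.6 to 519.5 CPM in wt cells and 258.3 to 677.7 CPM in KO#1 at 0 h, and 36.1 to 54.2 CPM and 67.3 to 91.6 CPM at 24 h. Col1a1 was 165.6, 79.7 and 27.1 CPM in wt cells at 0 h and at most 3.83 CPM at 24 h, and Acta2 was 84.0, 37.2 and 38.4 CPM and at most 2.35 CPM. Lum was at or near 0 in wt cells at 0 h, and Dcn went the other way from the list, from 0 in all 3 wt libraries at 0 h to 8.33, 4.61 and 4.45 CPM at 24 h. Of the 14, 0 had a called response difference by edgeR (0.391% of all genes). At an unadjusted p under 0.05 there was 1 (10.1% of all genes), and DESeq2 called 1 (1.66% of all genes). The log2 response difference was positive in 11 of the 14 (47.9% of all genes), with a median of 0.40. The part of these markers in the results was not tested.

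Hmga2 RNA was 17.4, 13.3 and 22.4 CPM in wt cells at 0 h and 5.87, 5.51 and 5.93 CPM at 24 h, and in KO#1 10.2, 4.59 and 1.75 CPM at 0 h and 3.67, 2.25 and 0.871 CPM at 24 h. Every KO#1 library was below every wt library of the same time, though neither difference was called (-1.71 and -1.36 on the log2 scale). The labels do not say which part of Hmga2 is missing in KO#1, and reads from a part that remains would be counted. In KO#1 the summed fibroblast markers had the same order over libraries as Hmga2. They were 677.7, 501.1 and 258.3 CPM at 0 h and 91.6, 73.2 and 67.3 CPM at 24 h. In wt cells the order differed, with 519.5, 344.1 and 161.6 CPM at 0 h and 54.2, 36.1 and 44.1 CPM at 24 h. The part of fibroblast RNA in the Hmga2 values was not tested. The log2 response difference of Hmga2 was 0.36 (SE 0.90, adjusted p = 0.938, edgeR).

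Over 16619 tested genes, the response of KO#1 differed from that of wt cells in 65 genes (0.391%) by the quasi-likelihood test of edgeR, at an adjusted p under 0.05 (Benjamini-Hochberg). The log2 response difference was positive in 42 of them (0.253% of those tested) and negative in 23 (0.138%). With the wt and KO#1 libraries alone, these counts were 47 and 8. In the fit of all 18 libraries, the unadjusted p-value was under 0.05 in 1679 genes (10.1%). By contrast, 8429 genes (50.7%) changed from 0 h to 24 h in wt cells, with 26.0% of the tested genes rising and 24.7% falling. In KO#1 6774 genes (40.8%) changed, with 20.1% rising and 20.6% falling. The count of 65 depended on single libraries. It fell to 39, 28 and 15 without wt 0 h replicate 1, 2 or 3, to 7, 6 and 31 without wt 24 h replicate 1, 2 or 3, to 24, 28 and 27 without KO#1 0 h replicate 1, 2 or 3, and to 36, 12 and 25 without KO#1 24 h replicate 1, 2 or 3. All 65 genes kept the sign of their response difference in each of these 12 fits. They were chosen for a large difference in mostly the same libraries, so the kept sign is no independent check. Sox11, Smyd1, Spry2, Tmem181a, Arhgef3 and Atp10d were the 6 genes called in every one of the 12 fits.

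The 65 genes were sorted by their changes within each line. Of these, 18 changed in wt cells but not detectably in KO#1 (lost), 15 changed in the same direction in both with a smaller change in KO#1 (reduced), and 2 changed more in KO#1 (amplified). A further 16 changed in opposite directions in the 2 lines (reversed), and 14 changed in KO#1 but not detectably in wt cells (gained). DESeq2 gave 104 lost, 75 reduced, 10 amplified, 36 reversed and 51 gained genes, and the replicate number as a block left 7 gained genes. In the reduced genes, the log2 change of KO#1 was 22.7% to 54.8% of that of wt cells, with a median of 36.4%. These genes were chosen by that difference in the same libraries, so a low share follows from the choice and does not measure the response of other genes. With 2 time points, a slower change and a smaller change give the same values, so delay was not measured.

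**Figure D1:**
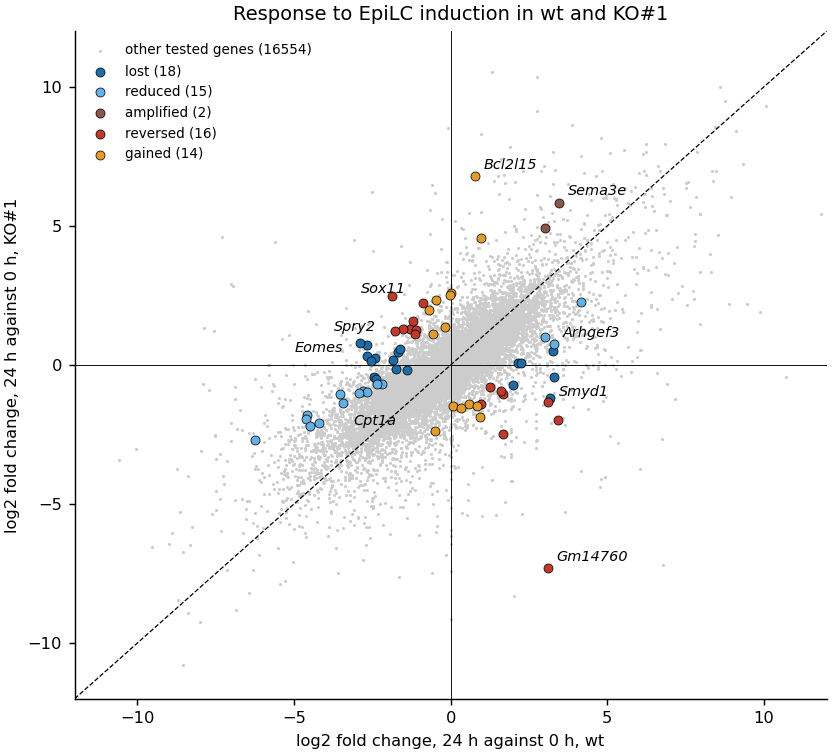
Each point is one of the 16619 tested genes, placed by its log2 fold change from 0 h to 24 h in wt cells (horizontal axis) and in KO#1 (vertical axis); the dashed line marks equal changes, and colours mark the 65 genes with a response difference by class. The 5 genes beyond a log2 fold change of 12 are outside the axes. The reversed genes (16) lie in the upper left and lower right quadrants, and the reduced genes (15) between the dashed line and the horizontal axis.

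The difference in response could come with a difference between the lines before induction, after it, or at both times. KO#1 and wt cells were called different at 24 h alone in 33 of the 65 genes, at 0 h alone in 21, and at both times in 11. In 7 of these 11 the sign of the difference turned between 0 h and 24 h. The difference between the lines was smaller at 24 h than at 0 h in 27 genes and larger in 38. Over all tested genes, KO#1 differed from wt cells in 1108 genes (6.67%; 3.99% higher, 2.68% lower) at 0 h and in 1638 (9.86%; 6.25% higher, 3.61% lower) at 24 h. These comparisons share their libraries with the response difference and are given as a description of it.

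**Figure D2:**
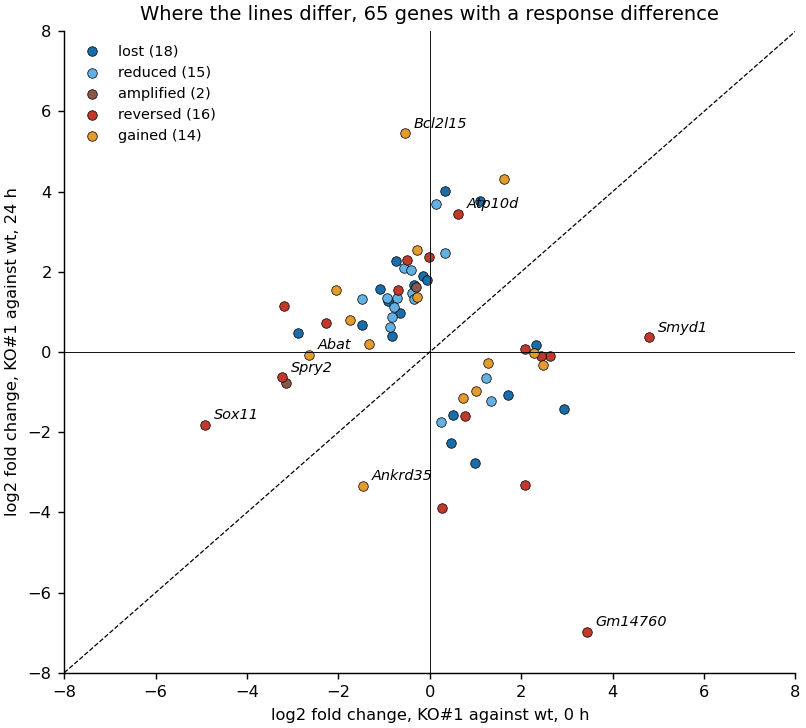
Each point is one of the 65 genes, placed by the log2 fold change of KO#1 against wt cells at 0 h (horizontal axis) and at 24 h (vertical axis), and coloured by class; the dashed line marks equal differences. Sox11 (-4.92 and -1.81), Spry2 (-3.23 and -0.64) and Smyd1 (4.79 and 0.37) lie far from 0 at 0 h and nearer to it at 24 h, whereas Atp10d (0.62 and 3.45) and Bcl2l15 (-0.55 and 5.46) do the reverse.

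Sox11, a SoxC transcription factor of progenitor cells, was 79.4, 44.6 and 50.5 CPM in wt cells at 0 h and 29.3, 27.9 and 36.0 CPM at 24 h. In KO#1 it was 1.96, 2.09 and 1.75 CPM at 0 h and 8.82, 7.36 and 10.3 CPM at 24 h. It fell in wt cells (log2 fold change -0.90) and rose in KO#1 (2.21), and no library of KO#1 reached the lowest wt library at either time. The log2 response difference was 3.11 (SE 0.41, adjusted p = 0.00359, edgeR). Against wt cells, KO#1 was lower by 4.92 on the log2 scale at 0 h and by 1.81 at 24 h. Sox11 thus moved towards the wt level without reaching it.

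Spry2, an inhibitor of receptor tyrosine kinase signalling, was 159, 97.3 and 144 CPM in wt cells at 0 h and 52.1, 49.8 and 60.5 CPM at 24 h. The KO#1 libraries had 20.3, 12.7 and 9.81 CPM at 0 h and 31.7, 32.1 and 40.7 CPM at 24 h. The gene fell in wt cells (-1.30) and rose in KO#1 (1.29), with a log2 response difference of 2.59 (SE 0.35, adjusted p = 0.00359, edgeR). The lines were called different at 0 h (-3.23) but not at 24 h (-0.64, adjusted p = 0.119, edgeR), although their libraries did not overlap at either time. Its paralog Spry1 was 10.2, 10.0 and 15.4 CPM in wt cells at 0 h and 3.93, 5.11 and 7.35 CPM at 24 h. KO#1 had 8.73, 7.31 and 6.30 CPM at 0 h and 12.5, 14.2 and 20.9 CPM at 24 h. Spry1 also fell in wt cells (-1.13) and rose in KO#1 (1.10), but there the difference between the lines was called at 24 h (1.54) and not at 0 h (-0.69). Its log2 response difference was 2.23 (SE 0.41, adjusted p = 0.0291, edgeR) and was called in 5 of the 12 fits that left out 1 library, against 12 of 12 for Spry2. Spry1 lost its call without wt 0 h replicate 3, wt 24 h replicate 1 or 2, KO#1 0 h replicate 2 or 3, or KO#1 24 h replicate 2 or 3, with adjusted p between 0.0519 and 0.101 (edgeR). Spry1 overlaps an annotated gene on the opposite strand, Gm42922. Of the 65 genes, 42 overlap another annotated gene and 34 one on the opposite strand, among them Smyd1 (Krcc1), Kdelr3 (Ddx17), Eomes (Gm33460), Pfkp (Pitrm1), Has3 (Chtf8) and Tmem181a (Dynlt1a). Whether the counting used strand is not given in the sources used here, and if it did not, reads of such partners cannot be told apart.

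Eomes, a T-box factor of the primitive streak, was 15.4, 6.79 and 12.0 CPM in wt cells at 0 h and 1.88, 1.70 and 1.67 CPM at 24 h. KO#1 had 6.52, 6.89 and 6.77 CPM at 0 h and 5.22, 8.38 and 11.7 CPM at 24 h. The groups overlapped at 0 h, and at 24 h each KO#1 library exceeded every wt library. Eomes fell in wt cells (-2.67) with no detectable change in KO#1 (0.33), and the log2 response difference was 3.00 (SE 0.49, adjusted p = 0.0139, edgeR). Without wt 24 h replicate 1 or 2 the adjusted p was 0.0538 and 0.0557 (edgeR). Among the 6 tested genes of a list of 15 primitive streak and mesendoderm genes, Eomes was the 1 gene called (0.391% of all genes were). The rest of the list, T, Mixl1, Wnt3, Fgf8, Evx1, Tbx6, Mesp1, Lhx1 and Foxa2, did not pass the filter. Over the 6 tested genes, Eomes among them, the median log2 response difference was 1.16, against -0.04 over all genes. It was positive in 4 of the 6 (47.9% of all genes).

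The 250 bases before the annotated start of these 4 genes are shown because their response turned or was lost, with motif matches on either strand in capitals. The motifs searched were the GC box GGGCGG, the CCAAT box CCAAT, the TATA box TATANAA and the ETS core CCGGAA, where ETS factors such as Etv4 and Etv5 are targets of FGF-ERK signalling. Sequences are from RefSeq on GRCm38.p6, written 5′ to 3′ along the strand of the gene, and lie at chr14:105896820-105897069 (minus strand) for Spry2, chr3:37639697-37639946 (plus strand) for Spry1, chr12:27342719-27342968 (minus strand) for Sox11 and chr9:118477939-118478188 (plus strand) for Eomes.
Spry2: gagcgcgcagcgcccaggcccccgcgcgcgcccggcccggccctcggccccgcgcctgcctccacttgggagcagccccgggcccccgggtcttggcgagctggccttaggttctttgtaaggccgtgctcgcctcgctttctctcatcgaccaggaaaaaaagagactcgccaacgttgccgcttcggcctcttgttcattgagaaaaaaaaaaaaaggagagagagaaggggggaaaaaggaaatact
Spry1: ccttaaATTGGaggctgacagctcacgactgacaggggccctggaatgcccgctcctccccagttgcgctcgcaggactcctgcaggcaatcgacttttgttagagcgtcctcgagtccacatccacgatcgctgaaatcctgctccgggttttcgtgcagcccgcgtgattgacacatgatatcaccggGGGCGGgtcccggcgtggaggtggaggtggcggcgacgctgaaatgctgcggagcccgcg
Sox11: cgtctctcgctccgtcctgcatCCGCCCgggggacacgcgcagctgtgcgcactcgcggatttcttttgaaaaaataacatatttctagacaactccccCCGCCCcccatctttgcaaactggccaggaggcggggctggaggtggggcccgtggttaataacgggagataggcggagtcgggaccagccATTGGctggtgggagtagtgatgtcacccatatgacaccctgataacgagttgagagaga
Eomes: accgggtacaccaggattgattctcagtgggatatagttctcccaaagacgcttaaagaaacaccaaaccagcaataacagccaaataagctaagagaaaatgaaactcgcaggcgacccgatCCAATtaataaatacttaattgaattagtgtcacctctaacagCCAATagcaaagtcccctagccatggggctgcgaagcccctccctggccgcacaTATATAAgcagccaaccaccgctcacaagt
None of the letters searched were found for Spry2. The window of Spry1 held 1 GC box and 1 CCAAT box, that of Sox11 held 2 GC boxes and 1 CCAAT box, and that of Eomes held 2 CCAAT boxes and 1 TATA box. Of all 32851 promoters of the RefSeq table, 32.7% held the GC box, 33.9% the CCAAT box, 10.4% the TATA box and 12.0% the ETS core. The matches describe these windows only. Promoters were found for 48 of the 65 genes (73.8%). With the rest missing, a comparison of the whole group with other promoters is void, and none is made.

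Among the 16 reversed genes the lines were called different at 0 h alone in 7, at 24 h alone in 8 and at both times in 1, Sox11. Smyd1, a muscle histone methyltransferase, was 1.64, 0.367 and 0.834 CPM in wt cells at 0 h and 8.27, 6.31 and 5.62 CPM at 24 h. Levels in KO#1 were 19.4, 12.5 and 32.6 CPM at 0 h and 8.16, 8.38 and 9.58 CPM at 24 h. The lines were apart at 0 h (4.79) and close at 24 h (0.37), and the log2 response difference was -4.42 (SE 0.60, adjusted p = 0.00359, edgeR). Larp1b (-2.02), an RNA-binding protein of the La-related family, and Tmem47 (-2.74), a transmembrane protein of cell junctions, showed the same order, higher in KO#1 at 0 h (2.09 and 2.64) and not called different at 24 h. Shisa8, which encodes an auxiliary subunit of AMPA receptors, was lower in KO#1 at 0 h (-2.27) with no called difference at 24 h, and its log2 response difference was 2.99 (SE 0.54, adjusted p = 0.0244, edgeR). Larp1b was called in 1, Tmem47 in 4 and Shisa8 in 8 of the 12 fits without 1 library.

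Other reversed genes were not called different between the lines at 0 h and parted by 24 h. F2r, the thrombin receptor, was 17.1, 22.5 and 25.3 CPM in wt cells at 0 h and 10.7, 8.32 and 11.3 CPM at 24 h. KO#1 went from 21.9, 14.0 and 28.4 CPM to 55.6, 51.9 and 48.4 CPM. Its log2 response difference was 2.37 (SE 0.38, adjusted p = 0.0130, edgeR), and without wt 24 h replicate 1 or 2 the adjusted p was 0.0511 and 0.0557 (edgeR). Atp10d, annotated as a polymorphic pseudogene, went from 5.25, 3.40 and 3.59 CPM to 1.41, 1.20 and 1.42 CPM in wt cells and from 5.74, 6.26 and 6.13 CPM to 12.9, 14.8 and 16.9 CPM in KO#1, a log2 response difference of 2.83. Its 24 h libraries did not overlap between the lines. Lzts1, a leucine zipper protein, turned the other way, with a log2 response difference of -4.16 and a level of 5.61 to 14.0 CPM in wt cells and 0.221 to 0.818 CPM in KO#1 at 24 h, and was called in 2 of the 12 fits without 1 library and not with the replicate block (adjusted p = 0.0507, edgeR). Gm14760, a processed pseudogene, had 0 counts in all 3 KO#1 libraries at 24 h and at most 3 counts in each wt library at 0 h, so its fitted fold change is not given.

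**Figure D3:**
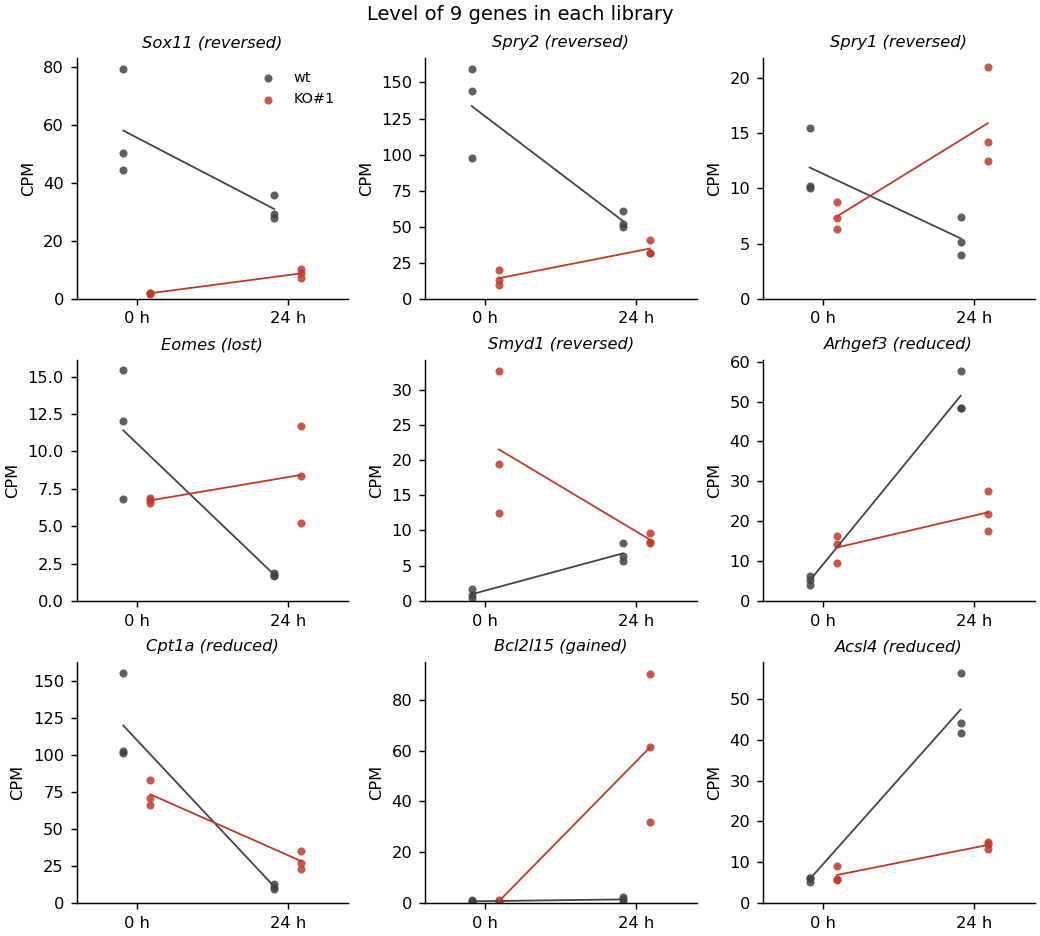
Points are single libraries, with the CPM of each of 9 genes on the vertical axis (linear, from 0) against time, wt cells in grey and KO#1 in red; lines join the group means. Lines that cross, as for Spry1 (wt 10.0 to 15.4 CPM at 0 h, KO#1 12.5 to 20.9 CPM at 24 h) and Arhgef3, differ from lines that converge, as for Sox11 and Smyd1, and from lines that part, as for Bcl2l15.

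Of the 33 lost or reduced genes, 24 fell in wt cells and fell less, or not detectably, in KO#1. Cpt1a, the carnitine palmitoyltransferase that admits long-chain fatty acids to mitochondria, was 103, 102 and 155 CPM in wt cells at 0 h and 9.50, 10.5 and 13.1 CPM at 24 h. The KO#1 libraries went from 83.2, 66.2 and 70.8 CPM to 22.9, 26.7 and 35.1 CPM. It fell in both lines (-3.44 and -1.38), with the order of the lines turned between the times. The log2 response difference was 2.06 (SE 0.34, adjusted p = 0.0139, edgeR), and without wt 24 h replicate 1 or 2 the adjusted p was 0.0599 and 0.0597 (edgeR). Pfkp, the platelet isoform of the glycolytic enzyme phosphofructokinase, was 208, 175 and 213 CPM in wt cells at 0 h and 41.9, 61.6 and 61.5 CPM at 24 h, against 172, 182 and 113 CPM and 132, 179 and 216 CPM in KO#1. Pfkp fell in wt cells (-1.85) without a detectable change in KO#1 (0.17), a log2 response difference of 2.03 (SE 0.36, adjusted p = 0.0244, edgeR). Its call was lost in 5 of the 12 fits without 1 library, those without wt 0 h replicate 3, wt 24 h replicate 1 or 2, or KO#1 24 h replicate 2 or 3. The median log2 response difference of the 18 glycolysis and hypoxia genes was 0.03, and no other member was called.

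Kdelr3, a retrieval receptor of the endoplasmic reticulum, fell in both lines (-4.61 in wt cells and -1.95 in KO#1). Crtac1, an extracellular matrix protein, fell by 4.60 on the log2 scale in wt cells and by 1.79 in KO#1. Zc3hav1, an antiviral RNA-binding protein, went from 110, 95.3 and 161 CPM to 6.69, 6.01 and 6.98 CPM in wt cells and from 176, 164 and 126 CPM to 26.6, 34.9 and 48.5 CPM in KO#1. The groups overlapped at 0 h and were apart at 24 h. Cyba, a subunit of the NADPH oxidase, and Tmem8 fell in wt cells (-1.69 and -2.40) and had log2 changes of 0.47 and 0.25, not called, in KO#1. Tmem181a also belonged to this group (-2.44 in wt cells, -0.42 and not called in KO#1, log2 response difference 2.02), as did its pseudogene copy Tmem181b-ps (2.66). Whether the authors' counting divided reads between the gene and its copy was not tested, so both values are uncertain. Of the 12 fits without 1 library, Kdelr3 was called in 2, Zc3hav1 in 3, Cyba and Crtac1 in 8 and Tmem8 in 10.

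The remaining 9 lost or reduced genes rose in wt cells. Arhgef3, an exchange factor for RhoA, was 3.94, 5.14 and 6.17 CPM in wt cells at 0 h and 48.3, 48.4 and 57.7 CPM at 24 h. KO#1 libraries stood at 14.3, 16.3 and 9.52 CPM at 0 h and 17.5, 21.7 and 27.4 CPM at 24 h. KO#1 was above wt cells at 0 h (1.34) and below them at 24 h (-1.21), and the log2 response difference was -2.55 (SE 0.39, adjusted p = 0.0103, edgeR). Acsl4, a ligase that activates polyunsaturated fatty acids, rose from 5.25, 6.24 and 6.09 CPM to 56.5, 44.2 and 41.8 CPM in wt cells, and from 5.87, 5.64 and 9.11 CPM to 14.6, 14.9 and 13.2 CPM in KO#1. The lines overlapped at 0 h and did not at 24 h, with a log2 response difference of -1.98 (SE 0.35, adjusted p = 0.0244, edgeR) that was called in 6 of the 12 fits without 1 library. It was not called without wt 0 h replicate 3, wt 24 h replicate 1 or 2, KO#1 0 h replicate 3, or KO#1 24 h replicate 2 or 3. Lrp2 (megalin), an endocytic receptor, rose by 4.16 in wt cells and 2.28 in KO#1 on the log2 scale, and its difference was called in 2 of those 12 fits.

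Among the lost genes that rose in wt cells, Sema6a, a transmembrane semaphorin, went from 1.31, 1.19 and 1.33 CPM to 10.6, 11.7 and 15.9 CPM in wt cells. In KO#1 its levels were 3.52, 2.51 and 1.69 CPM at 0 h and 1.18, 1.43 and 2.92 CPM at 24 h. Hs6st2 and Has3, which build the sulfated and unsulfated sugar chains heparan sulfate and hyaluronan, rose in wt cells with log2 response differences of -2.73 and -4.37. Has3 had a total of 6 counts in the wt libraries of 0 h and 93 in those of 24 h, a ratio of 9.30 (95% interval 4.12 to 26.0, exact on summed counts, counting error only). Rassf3, a Ras-association protein, rose by 2.16 in wt cells with no detectable change in KO#1 (0.08). Leaving out single libraries kept the call of Rassf3 in 4 of 12 fits, of Sema6a and Has3 in 2, and of Hs6st2 in 1. The replicate block ended the call of Hs6st2 (adjusted p = 0.0603, edgeR).

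Of the 14 gained genes, 8 had a positive response difference. Bcl2l15, a member of the Bcl2 family, had 0, 0.918 and 1.00 CPM in wt cells at 0 h and 2.23, 1.70 and 0.247 CPM at 24 h. In KO#1 it went from 0.391, 1.25 and 0.350 CPM, which rest on 3, 6 and 6 counts, to 90.2, 61.5 and 31.7 CPM, from 1228, 602 and 510 counts. Every KO#1 library of 24 h stood far above all the others, and the log2 response difference was 6.01 (SE 1.05, adjusted p = 0.0227, edgeR). The call was lost in 5 fits, without wt 0 h replicate 2 or 3, wt 24 h replicate 2, or KO#1 0 h replicate 1 or 3, where the log2 response difference was 5.58 to 6.18. Bcl2l15 overlaps Gm43064 on the same strand. Abat (2.57), the GABA transaminase, Tgm3 (3.60), an epidermal transglutaminase, and Tnfrsf19 (1.66), a receptor of the TNF family and Wnt target, followed the same direction. For Abat the libraries of KO#1 held 0.418 to 0.521 CPM at 0 h and 2.18 to 3.27 CPM at 24 h, the last overlapping the 2.84 to 3.17 CPM of wt cells. Tnfrsf19 was 18.3 to 20.4 CPM in KO#1 at 24 h and 5.81 to 9.02 CPM in wt cells. These calls were made in 2 (Abat), 3 (Tgm3) and 1 (Tnfrsf19) of the 12 fits without 1 library, and the replicate block ended those of Tgm3 and Tnfrsf19 (adjusted p = 0.0547 and 0.0507, edgeR).

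The 6 gained genes with a negative response difference fell in KO#1, and their changes in wt cells were not called. Sgk1, a kinase regulated by glucocorticoids, was 123, 111 and 123 CPM in wt cells at 0 h and 132, 182 and 222 CPM at 24 h, against 220, 171 and 329 CPM and 74.9, 90.2 and 110 CPM in KO#1. The order of the lines turned, with no overlap at either time. Ndfip1 (-1.55), an adaptor of Nedd4 ubiquitin ligases, Acpp (-2.82), an acid phosphatase, and Syndig1 (-2.31), a synaptic membrane protein, were higher in KO#1 at 0 h and not called different at 24 h. Sgk1 and Acpp were called in 1 of the 12 fits without 1 library, and Ndfip1 and Syndig1 in 0. Ndfip1 was not called with the replicate block (adjusted p = 0.0631, edgeR). The 2 amplified genes were Sema3e, a secreted semaphorin, and 1190005I06Rik (1.92, called in 2 of these 12 fits). Sema3e rested on a total of 4 counts in KO#1 at 0 h and 332 at 24 h, a ratio of 62.3 (95% interval 24.1 to 229.8). In wt cells Sema3e rose from 0.984 to 1.38 CPM to 13.2 to 14.9 CPM. It was called in 0 of the 12 fits without 1 library and not with the replicate block (adjusted p = 0.0547, edgeR). DESeq2 did not call it either (adjusted p = 0.0913).

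The markers of the state change itself moved in both lines, and 0 of 14 naive pluripotency factors and 0 of 14 formative and primed markers had a response difference called by edgeR (0.391% of all genes), against 2 and 1 by DESeq2 (1.66% of all genes). At an unadjusted p under 0.05, 5 naive factors and 2 formative markers differed, against 10.1% of all genes. Of the 14 naive factors, 11 fell in wt cells (median log2 fold change of the list -4.24) and 11 fell in KO#1 (-2.94). The log2 response difference was positive in 13 of 14, with a median of 0.94, against 47.9% of all tested genes with a positive value. At 24 h, 7 of the 14 were higher in KO#1 than in wt cells and 0 were lower, against 6.25% and 3.61% of all genes. Of the formative and primed markers, 11 of 14 rose in both lines (medians 3.42 in wt cells and 2.32 in KO#1), and the median log2 response difference was -0.62. At 24 h, 5 of them, Dnmt3a, Pou3f1, Sox3, Lef1 and Sall2, were lower in KO#1 (3.61% of all genes). At 0 h 3 were already lower (2.68% of all genes) and 1 higher (3.99%), and the median log2 difference of the list between the lines was -0.54 at 0 h and -0.76 at 24 h. For the naive factors it was -0.13 and 1.11, with 2 higher and 1 lower at 0 h.

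Tbx3, a T-box factor of the naive network, had the largest positive value of the naive list. It was 648, 339 and 573 CPM in wt cells at 0 h and 3.58, 3.31 and 2.59 CPM at 24 h. In KO#1 it went from 497, 412 and 276 CPM to 18.4, 11.3 and 12.5 CPM. The lines overlapped at 0 h and were apart at 24 h, and the log2 response difference was 2.55 (SE 0.65, adjusted p = 0.0970, edgeR), which DESeq2 called (2.59, adjusted p = 0.0107). Prdm14, which represses differentiation genes in naive cells, was 0.645 to 0.701 CPM in wt cells at 24 h and 2.55 to 3.78 CPM in KO#1 (log2 response difference 1.94, SE 0.72). Dppa3 had the opposite sign (-1.15, SE 0.78). Among the formative markers, Sall2, a zinc finger factor, rose from 3.03 to 3.61 CPM to 26.4 to 47.4 CPM in wt cells and from 2.22 to 3.91 CPM to 7.42 to 16.2 CPM in KO#1, with a log2 response difference of -1.59 (SE 0.59, adjusted p = 0.323, edgeR). On the log2 scale Fgf5 rose by 5.71 in wt cells and by 5.76 in KO#1, a difference of 0.05 (SE 0.80).

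**Figure D4:**
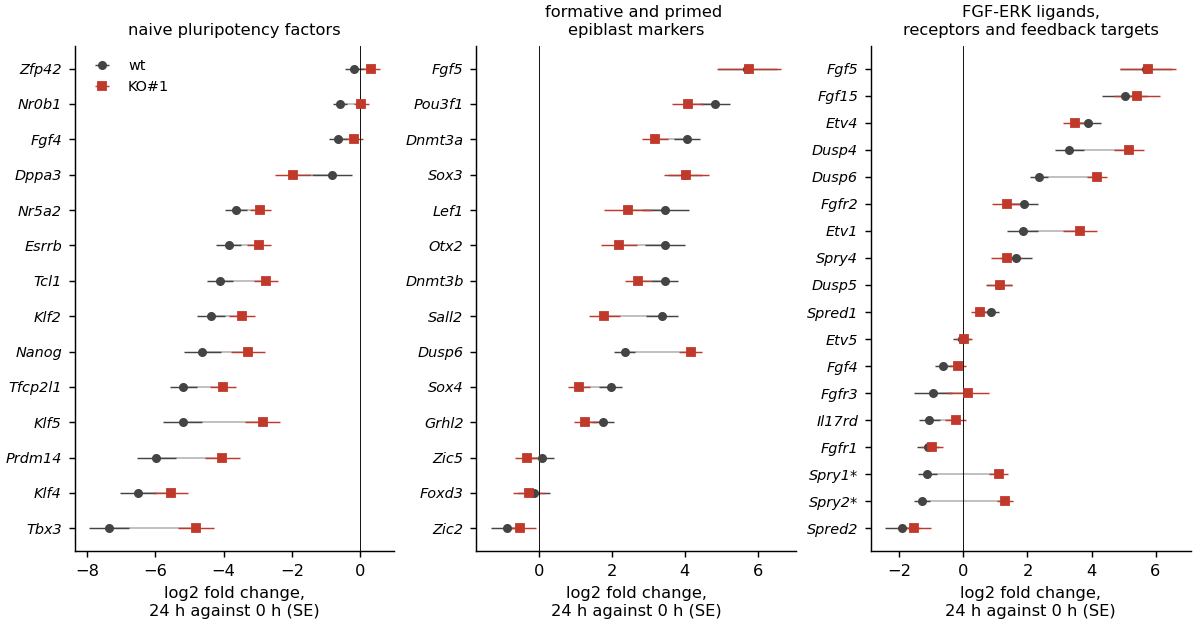
Each row is a gene and the horizontal axis its log2 fold change from 0 h to 24 h with its SE, in wt cells (grey circles) and KO#1 (red squares), for naive factors, formative and primed markers, and FGF-ERK genes; an asterisk marks a called response difference. In the naive panel the KO#1 value lies above the wt value in 13 of 14 genes, and in the FGF-ERK panel Spry1 and Spry2 alone carry an asterisk.

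Of the 18 tested genes of the FGF-ERK list, ligands, receptors and feedback targets, Spry1 and Spry2 were called (both higher, 0.253% of all genes), and the median log2 response difference was 0.38. The ligands Fgf4 and Fgf5 and the receptors Fgfr1, Fgfr2 and Fgfr3 were not called. Among the feedback inhibitors, Dusp6, a phosphatase of ERK, rose from 14.8, 16.2 and 32.4 CPM to 106, 108 and 116 CPM in wt cells and from 7.82, 7.52 and 5.31 CPM to 122, 118 and 127 CPM in KO#1. KO#1 was below wt cells at 0 h (-1.66, called) and close to them at 24 h (0.15, not called). Its log2 response difference of 1.80 (SE 0.40, adjusted p = 0.0534, edgeR) lay just outside the threshold, and by DESeq2 the adjusted p was 0.0024. Spry4 (-0.29), Spred1 (-0.35) and Spred2 (0.37) had small response differences, whereas Dusp4 (1.86, SE 0.63) and the ETS factor Etv1 (1.80, SE 0.70) had larger ones that were not called. Etv4 and Etv5, also ETS factors, had -0.40 and 0.05.

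Of the 19 immediate early genes tested, 0 were called in the response difference by edgeR or DESeq2 (3 at an unadjusted p under 0.05, against 10.1% of all genes). In wt cells 12 of them fell (24.7% of all genes) and 3 rose (26.0%). In KO#1 5 fell (20.6% of all genes) and 2 rose (20.1%). The median log2 fold change of the list was -0.96 in wt cells and -0.83 in KO#1. Fos was 29.5, 32.4 and 177 CPM in wt cells at 0 h, where the libraries varied widely, and 0.100 to 0.645 CPM at 24 h. Its log2 response difference was 2.26 (SE 1.37). In the list of the LIF receptor, Stat3 and targets, 0 of 12 genes were called by edgeR or DESeq2 (5 at an unadjusted p under 0.05, against 10.1% of all genes), with positive values in 10 (47.9% of all genes) and a median of 0.93. Bcl3, a Stat3 target, had the highest (2.15, SE 0.63). Of 16 Wnt effectors and targets, 1, Tnfrsf19, was called by edgeR (0.391% of all genes), 4 were under an unadjusted p of 0.05 (10.1% of all genes) and 3 were called by DESeq2 (1.66% of all genes). By edgeR, Tnfrsf19 was called in 1 of the 12 fits without 1 library. With the replicate number as a block 0 were called.

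Of 13 primitive endoderm genes, 0 were called in the response difference by edgeR or DESeq2 (0.391% and 1.66% of all genes) and 1 was under an unadjusted p of 0.05 (10.1%), while 11 had positive values (47.9% of all genes; median 1.12). The median log2 difference of the list between the lines, KO#1 against wt cells, was 0.79 at 0 h and 1.33 at 24 h. At 0 h 2 were already higher in KO#1 (3.99% of all genes). At 24 h, 6 were higher in KO#1 than in wt cells (6.25% of all genes), among them Hnf4a, Pdgfra, Col4a1 and Col4a2. Fibroblasts also express the last 3, and the summed fibroblast markers at 24 h were 67.3 to 91.6 CPM in KO#1 and 36.1 to 54.2 CPM in wt cells; their part in these values was not tested. Of 19 cholesterol synthesis genes, 0 were called by edgeR (0.391% of all genes), 2 were under an unadjusted p of 0.05 (10.1% of all genes) and 1 was called by DESeq2 (1.66% of all genes). In that list 5 had positive values (47.9% of all genes), with a median of -0.32. KO#1 was higher than wt cells in 4 of the 19 genes at 0 h (3.99% of all genes) and in 1 at 24 h (6.25%). The median log2 difference of the list between the lines was 0.41 at 0 h and -0.13 at 24 h. In wt cells 14 of the 19 rose (26.0% of all genes), while in KO#1 10 rose (20.1%) and 1 fell (20.6%). Hsd17b7, which acts late in the pathway, was the lowest (-1.97, SE 0.50, adjusted p = 0.0970, edgeR) and was called by DESeq2 (-1.93, adjusted p = 0.0135). It rose in wt cells (1.02) and fell in KO#1 (-0.95).

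For the other proteins that the study followed, no response difference was called. The PRC2 subunits Suz12 (-0.32, SE 0.30) and Ezh2 (-0.20, SE 0.34), and the envelope proteins lamin B1 (Lmnb1, 0.42, SE 0.45) and emerin (Emd, -0.42, SE 0.64), were all outside the threshold. Of 12 PRC2 genes, 0 were called by edgeR (0 at an unadjusted p under 0.05) or DESeq2, and of 13 lamin and envelope genes 0 were called by either (2 at an unadjusted p under 0.05, edgeR). Over all genes these shares were 0.391% by edgeR, 1.66% by DESeq2 and 10.1% at an unadjusted p under 0.05.

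The overall size of the response was compared on 4324 genes that changed in the libraries labelled KO#2 (26.0% of those tested), which share no library with wt cells or KO#1. Signed by the direction in those libraries, the median log2 change was 1.62 in wt cells and 1.37 in KO#1. The 24 h libraries taken singly gave 1.53, 1.50 and 1.47 for wt cells against 1.28, 1.29 and 1.27 for KO#1, each set against the same 0 h libraries, so these values leave out the spread at 0 h. The difference between the lines, 0.254, became 0.121 without KO#1 0 h replicate 3, 0.361 without KO#1 0 h replicate 1 and 0.325 without wt 0 h replicate 2, and it was not tested. The change signed in this way was smaller in KO#1 than in wt cells in 2789 of the genes (64.5%). In 92.0% both wt cells and KO#1 had the sign of the libraries labelled KO#2. The 2111 genes that rose in the libraries labelled KO#2 (12.7%) had medians of 1.43 in wt cells and 1.16 in KO#1, and the 2213 that fell (13.3%) had 1.88 and 1.58. With library sizes alone as the scaling, it was 0.159.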

How the data were processed

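RNA-seq of wt, KO#1 and KO#2 cells at 0 h and 24 h gave 18 libraries, grouped by their titles, with 3 biological replicates in each of 6 groups. The authors deposited raw counts for 45706 genes. According to their methods, stranded total RNA libraries were aligned to GRCm38 with STAR; the annotation release and the use of strand in counting are not given in the sources used here. Names, types and positions came from GENCODE M21, which holds 45143 of the identifiers.

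Counts were analysed in R 4.3.3 with edgeR 4.0.16: TMM factors, filterByExpr with the 6 groups and its minimum count at 10 (16619 genes kept), and 1 quasi-likelihood fit of 6 groups over 18 libraries (common dispersion 0.097, prior df 6.39), with Benjamini-Hochberg adjustment and a threshold of 0.05. Each SE was the absolute log2 fold change over the root of the F statistic. A change was called within a line at the same threshold, which defined the classes. Alternatives were DESeq2 1.42.0, other scalings, filters and thresholds, only the 12 libraries, protein-coding genes only, a replicate block, and leaving out each library. The steps were tested on simulated data. Replicate numbers were checked for pairing by the correlation of deviations from the group means: between wt and KO#1 at 24 h it was 0.480, 0.223 and 0.587 for numbers 1, 2 and 3, so the numbers pair these libraries, while in the other comparisons of 2 groups at least 1 pair was at or under 0.1 and the numbers do not. The labels do not say what the numbers share. No 2 of the 18 columns were identical (153 pairs). Figures were drawn with matplotlib 3.10.9.

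Members and gene lists were chosen with earlier results of these data known. Named genes were Hmga2, Suz12, Ezh2, Lmnb1 and Emd; in each class and direction, up to 4 protein-coding genes with the smallest p; called members of the lists; and, in each list, the highest and lowest response difference at an average log2 CPM of at least 2. Atp10d, Gm14760, Tmem181b-ps and the other list members named were chosen after their values were seen, as were the promoters shown and their motifs. Intervals on counts are 95% and cover counting error only.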

Additional observations from a re-analysis of the deposited data

Results flagged for a closer look

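The test of the difference between the responses of KO#1 and wt cells picked out 65 genes, and the log2 response difference (KO#1 minus wt) of those taken by the naming rule is given here with no explanation. In reversed genes it was F2r (2.37), Larp1b (-2.02), Lzts1 (-4.16), Shisa8 (2.99), Smyd1 (-4.42), Sox11 (3.11), Spry1 (2.23), Spry2 (2.59) and Tmem47 (-2.74). Genes called as changed in wt cells and not in KO#1 had Cyba (2.15), Eomes (3.00), Has3 (-4.37), Hs6st2 (-2.73), Pfkp (2.03), Rassf3 (-2.08), Sema6a (-3.74), Tmem181a (2.02) and Tmem8 (2.65). Those with a smaller change in KO#1 had Acsl4 (-1.98), Arhgef3 (-2.55), Cpt1a (2.06), Crtac1 (2.80), Kdelr3 (2.67), Lrp2 (-1.88) and Zc3hav1 (2.14). Genes called as changed in KO#1 and not in wt cells had Abat (2.57), Acpp (-2.82), Bcl2l15 (6.01), Ndfip1 (-1.55), Sgk1 (-1.98), Syndig1 (-2.31), Tgm3 (3.60) and Tnfrsf19 (1.66). Genes with a larger change in KO#1 had 1190005I06Rik (1.92) and Sema3e (2.38).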

How the results depend on the processing

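All 65 genes kept the sign of their response difference in every setting that tested them, which is no independent check, since they were chosen in the same libraries. Sox11 and Smyd1 were called in every setting that tested them. Smyd1 was not among the genes with at least 10 counts in each of the 12 libraries. Of the 65 calls, 64 were shared with DESeq2 (276 calls, 191 higher and 85 lower), 62 with RLE factors (64 calls), 60 without a filter on low counts (307 calls, 198 and 109) and 44 with the 12 libraries alone (55 calls, 8 lower, 85.5% higher). With library sizes alone there were 4 calls (2 higher, 2 lower), where the median response difference of all genes was -0.21 against -0.04 with TMM factors, and at an adjusted p under 0.01 there were 5 (4 and 1). Leaving out 1 library gave 6 to 39 calls (4 to 31 higher, 2 to 11 lower). The replicate block left 50 calls, 42 of them shared with the 65, with 7 gained genes in place of 14. Among the genes taken by the naming rule, Ndfip1, Tgm3, Lzts1, Tnfrsf19, Hs6st2 and Sema3e lost their calls (adjusted p between 0.0507 and 0.0631, edgeR). The replicate block ended calls of other genes too. This block changed the other counts of calls between groups by less than 1.5 times (1685 genes at 24 h).

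Without 1 library, 6822 to 8797 genes changed in wt cells, 4573 to 7160 in KO#1, 598 to 1151 differed between the lines at 0 h and 1028 to 1854 at 24 h, and the difference in response size was 0.121 to 0.361. At an adjusted p under 0.01, 3999 genes changed in KO#1, and 501 and 806 differed between the lines at 0 h and 24 h. With at least 10 counts in each of the 12 libraries these were 475 and 822, over 9728 genes tested. Library sizes alone gave 1088 at 24 h and a difference in response size of 0.159; the latter could not be computed from the 12 libraries alone, which hold no KO#2 library. Where a count moved, the cause was not tested. Depth limits genes near 3 counts, 0.984 CPM in wt 0 h replicate 1.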
